A study of Mus musculus with 16 samples.

Results

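The genes described here are those of the step that turns a licensed replication origin into active forks: Cdc7 and Dbf4, which encode the Dbf4-dependent kinase (DDK), Cdc45, and the GINS subunit genes Gins1, Gins2, Gins3 and Gins4. These 7, of 21887 protein-coding genes on the autosomes and the sex chromosomes, were named as a group by function and not by a measured value. For each gene, E2f4 peak summits within 1000 bp of either annotated gene end were read from 4 lists, and the length covered by H3K4me2 and by H3K27ac within 5000 bp was read from 4 more. Peaks had been called in chromatin immunoprecipitation sequencing (ChIP-seq) of mouse liver collected 40 h after partial hepatectomy, at postnatal day 90, on a mixed C57/B6 and 129 background. The KO mice were Arid1a Fl/Fl; Alb-cre, in which Cre is driven by the albumin promoter, which is active in hepatocytes; liver cells in which that promoter has not been active keep the gene. The WT mice were Arid1a Fl/Fl without Cre, so that both groups carried the floxed alleles and both had undergone the operation. E2f4 had 2 libraries per genotype and each mark had 1 library per genotype. The labels do not say whether the replicates came from separate animals, so their spread may be technical.

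DNA replication starts at origins that were loaded with an inactive MCM helicase in G1. DDK, in which Dbf4 is the activating subunit and Cdc7 the kinase, phosphorylates MCM, after which Cdc45 and the four-subunit GINS complex join it to form the active helicase. In regenerating liver, hepatocytes leave quiescence and pass through this step as they enter S phase. E2f4 is a DNA-binding subunit of the DREAM complex, in which pocket proteins and the MuvB core hold cell cycle genes down in quiescent cells. H3K4me2 marks promoters and enhancers, H3K27ac marks those that are active, and Arid1a belongs to SWI/SNF, a complex that remodels chromatin.

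The deposited lists give called peaks without coverage, and how deeply each library was sequenced is therefore unknown. Where a list has no peak, none was called, and the protein or mark may still have been present. The lists cannot check the deletion of Arid1a itself. The E2f4 lists held 287 and 683 peaks in KO and 1791 and 1058 in WT. KO replicate 1 therefore stood apart as the shortest list, and the counts of genes called in every library are given with and without it. H3K4me2 covered 111.6 Mb of the genome in KO and 104.0 Mb in WT, and H3K27ac covered 103.7 Mb in KO and 112.6 Mb in WT. Fold enrichments and −log10 q-values below are the authors' own values for single peaks. They describe a peak within its list, and ranks from lists of different length show no change between libraries.

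E2f4 was called near the start of all 7 genes in at least 1 library, and at 4 of them, Cdc7, Dbf4, Gins2 and Gins3, in all 4 libraries. Over all protein-coding genes, 7.63% had a summit in at least 1 library and 1.12% in all 4. Without KO replicate 1, Cdc45 joined them, so that 5 of the 7 genes had a summit in each of the 3 other libraries, beside 2.77% of all genes. KO replicates 1 and 2 held a summit at 4 and 6 of the 7 genes, where the same lists held one at 1.17% and 3.26% of all genes. WT replicates 1 and 2 each held a summit at 6 of the 7, beside 6.62% and 4.72% of all genes. The mean number was 5.0 ± 1.41 in KO and 6.0 ± 0 in WT (SD, n = 2 each), a difference of -1.0. A two-sided exact permutation test over the 6 ways to assign libraries to genotypes gave p = 1, where 0.333 is the smallest p it can give, so no difference was detectable in this design. Without KO replicate 1 the difference was 0. Both WT lists held a summit at 5 of the 7 (3.87% of all genes), and each of these 5 also had one in a KO list, as did 72% of the 846 genes called in both WT lists. Of the 28 pairs of gene and library, 22 held a summit, never more than 1 per pair. Called summits lay at most 324 bp from the gene start, and the nearest summit outside the window, at Cdc45 in WT replicate 1, was 64627 bp away, so no call depended on the 1000 bp limit.

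**Figure D1:**
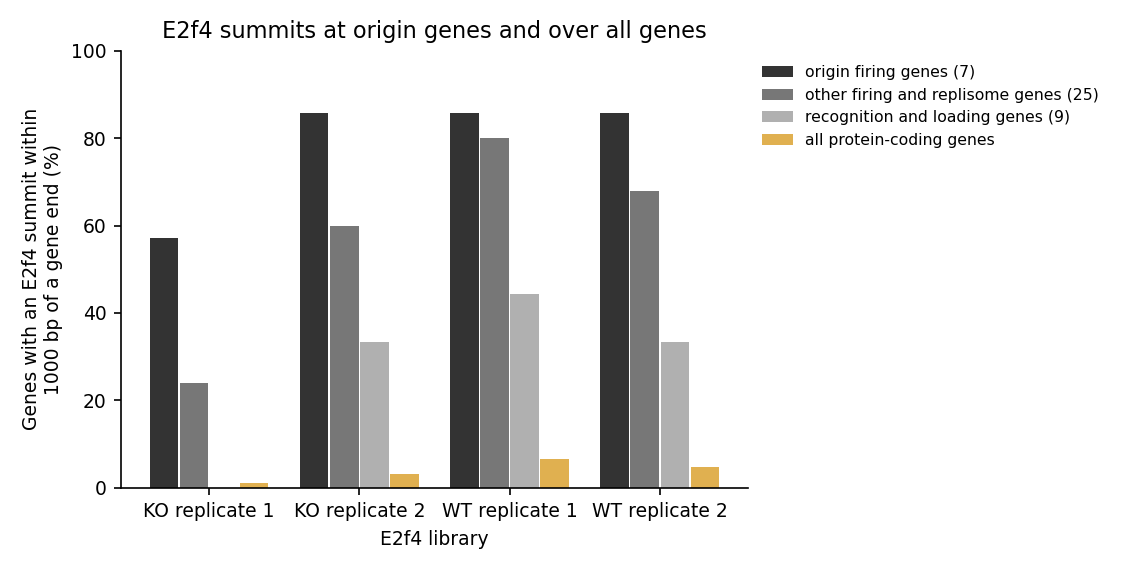
Share of genes (vertical axis, percent) with an E2f4 summit within 1000 bp of a gene end in each of the 4 libraries (horizontal axis), for the 7 origin firing genes, 25 other firing and replisome genes, 9 origin recognition and loading genes and all protein-coding genes. In KO replicate 1 the origin firing genes reached 57.1%, the loading genes 0% and all protein-coding genes 1.17%. In the other 3 libraries the origin firing genes reached 85.7%.

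The DDK genes both carried E2f4 at the start in every library. Cdc7, the kinase gene (chromosome 5, 106964315 to 106984440, plus strand, build mm10), had peaks with −log10 q-values of 49 and 66.2 in KO replicates 1 and 2, and of 110 and 176 in WT replicates 1 and 2. They ranked 15 of 287 and 98 of 683 in KO, and 42 of 1791 and 47 of 1058 in WT, so that Cdc7 lay in the strongest 14.3% or better of each list. The 4 summits fell between 11 and 30 bp inside the gene start. Dbf4, the gene of the activating subunit (chromosome 5, 8396969 to 8422725, minus strand), had weaker peaks, with −log10 q-values of 5.99 and 22.1 in KO and 30.7 and 26.3 in WT. They ranked 186 and 293 in KO, and 305 and 369 in WT. The Dbf4 summits lay from -3 to 33 bp relative to the gene start. The neighbouring gene Slc25a40, which encodes a mitochondrial carrier, starts 5 bp away on the opposite strand. The peak therefore lies at both starts and cannot be assigned to either gene alone.

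Cdc45 (chromosome 16, 18780447 to 18811972, minus strand), the helicase component that joins MCM together with GINS, was called in 3 of the 4 libraries. KO replicate 1 held no peak there. KO replicate 2 held one at rank 566 of 683 (−log10 q-value 7.28), and the WT replicates held peaks at ranks 489 of 1791 and 589 of 1058 (15.9 and 13.3). These summits lay 323 bp inside the outermost annotated start in KO replicate 2, and 324 and 283 bp inside it in WT replicates 1 and 2. The annotated gene Ufd1, which encodes a cofactor of the p97 ATPase, runs in the opposite direction, and its outermost start lay 236 bp inside Cdc45. That start was 47 bp from the nearest of these summits, and all of them lay closer to it than to the Cdc45 start. The peak, counted here as a Cdc45 call, therefore cannot be assigned to Cdc45 alone.

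The GINS genes differed widely among themselves, with the highest-ranking E2f4 peaks at Gins3 and a single call at Gins4. Gins3 (chromosome 8, 95633559 to 95645059, plus strand) ranked 45 of 287 and 29 of 683 in KO, and 77 of 1791 and 43 of 1058 in WT. Its −log10 q-values were 27.1 and 112 in KO and 87 and 185 in WT, with all 4 summits between 38 and 57 bp upstream of the start. No other annotated gene lay within 5000 bp of it. Gins2 (chromosome 8, 120581266 to 120589075) had peaks at ranks 176 and 131 in KO, and 188 and 113 in WT. The Gins2 −log10 q-values were 6.67 and 51.5 in KO and 45.9 and 95.3 in WT, and the 4 summits lay within 13 bp of each other, from 10 to 23 bp upstream of the marked gene end. The non-coding gene Gm10614 begins 102 bp from that end. Gins1 (chromosome 2, 150909556 to 150931280) was called in KO replicate 2 (rank 444, −log10 q-value 12) and in WT replicate 1 (rank 406, 21.2), and in neither of the other libraries. Gins4 (chromosome 8, 23226610 to 23237668) was called in WT replicate 2 alone, at rank 758 of 1058 (−log10 q-value 8.77), with the summit 142 bp from the nearest end of the non-coding gene Gm39141. The strand of Gins1, Gins2 and Gins4 was not given in the table used, and the end with more H3K4me2 was taken as the start. Among the 17492 genes with a strand, this rule picked the same end as the strand at 77.8%.

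**Figure D2:**
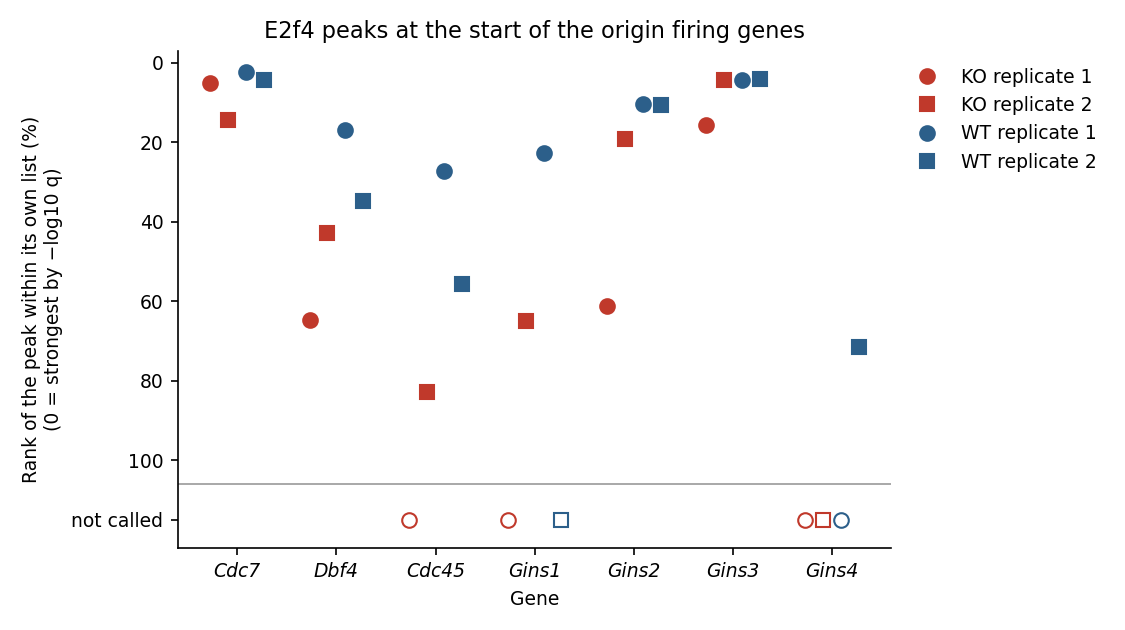
Rank of the E2f4 peak of each gene within its own list, as a percent of the peaks in that list (vertical axis, 0 is the strongest by −log10 q-value), for KO and WT replicates; open symbols in the lowest strip mark genes without a call. Cdc7 and Gins3 stay within the strongest 15.7% of every list, whereas Gins4 has a single call at 71.6%.

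Within each gene the summits of the different libraries fell on the same place. The spread between the outermost summits was 13 bp at Gins2, 19 bp at Cdc7 and at Gins3, 36 bp at Dbf4, 41 bp at Cdc45 and 74 bp at Gins1, and all peaks of a gene shared at least 1 bp. Of the 22 summits, 21 lay inside an H3K4me2 region called in the same genotype. The exception was Gins4, whose summit at 30 bp inside the marked end lay just outside the WT region that began at 34 bp. By contrast 15 of the 22 summits lay inside an H3K27ac region of the same genotype, and the 7 others were all at Gins2 (in WT), Gins3 (in both genotypes) and Gins4 (in WT). The 22 summits are repeated calls at 7 genes, and the shares over all E2f4 summits were not computed.

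The promoter sequences show what lies under these summits, and those of Cdc7, Gins3 and Dbf4 are printed because all 4 of their summits fell inside the printed window. RefSeq promoter windows of build GRCm38.p6 (coordinates as mm10), from 250 bases before to 50 bases after an annotated start, matched 4 of the 7 genes; Gins1, Gins2 and Gins4 were without an entry. Capitals mark the letters GCGGGAA, a core of the E2F consensus, and TTTGAA, the cell cycle genes homology region (CHR) that is bound by the MuvB core, each searched on both strands (TTCCCGC and TTCAAA on the other strand), with no overlap between matches.
Cdc7, chr5:106964072-106964371, plus strand: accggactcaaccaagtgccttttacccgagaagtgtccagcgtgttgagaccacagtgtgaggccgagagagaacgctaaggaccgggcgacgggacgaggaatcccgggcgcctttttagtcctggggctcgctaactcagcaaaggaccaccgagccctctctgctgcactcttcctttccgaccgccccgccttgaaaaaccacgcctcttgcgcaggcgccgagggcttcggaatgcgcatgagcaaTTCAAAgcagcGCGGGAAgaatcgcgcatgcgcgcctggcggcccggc
Gins3, chr8:95633309-95633608, plus strand: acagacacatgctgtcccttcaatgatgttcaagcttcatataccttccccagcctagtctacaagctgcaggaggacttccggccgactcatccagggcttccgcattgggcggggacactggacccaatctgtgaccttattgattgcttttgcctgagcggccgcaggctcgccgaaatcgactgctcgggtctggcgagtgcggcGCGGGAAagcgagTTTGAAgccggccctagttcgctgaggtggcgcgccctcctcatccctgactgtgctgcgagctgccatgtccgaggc
Dbf4, chr5:8422667-8422966, minus strand: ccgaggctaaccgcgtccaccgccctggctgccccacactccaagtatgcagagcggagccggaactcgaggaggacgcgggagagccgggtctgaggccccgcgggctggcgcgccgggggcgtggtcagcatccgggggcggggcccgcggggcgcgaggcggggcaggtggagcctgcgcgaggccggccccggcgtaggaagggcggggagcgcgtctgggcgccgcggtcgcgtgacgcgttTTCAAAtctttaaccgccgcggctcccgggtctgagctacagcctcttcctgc

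In Cdc7 and Gins3, the genes with the highest ranks of the 7, both motifs stood side by side under the summits. At Cdc7 the E2F core and the CHR were separated by 5 bases, and the centre of the E2F core was between 5 and 12 bp from the 4 summits. At Gins3 they were separated by 6 bases, and the centre of the E2F core was between 0 and 19 bp from the summits. Dbf4 held a CHR whose centre was between 0 and 24 bp from its summits, and no GCGGGAA in this window. The Cdc45 window held 2 matches to the CHR but none of its 3 summits, the nearest match being 270 bp from a summit. A second annotated start of Cdc7, whose window overlaps the first, held another E2F core 184 to 203 bp from the summits. Over 21263 promoter windows of protein-coding genes, 5.95% held the E2F core, 16.0% the CHR and 0.588% both. Among the 511 windows with a summit of both WT libraries inside, the shares were 35.6%, 35.0% and 7.05%. Both motifs were chosen with the sequences in view, and a match is a description of the letters. A CCAAT box (CCAAT or ATTGG) was also searched, without capitals, and matched at Gins3 and Cdc45 but not at Cdc7 or Dbf4. It was held by 38.2% of all windows and by 61.3% of the 511.

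For the 4 genes called in every library, the genes with the most similar E2f4 ranks were looked up. Likeness was the mean absolute difference of within-list rank, in percentage points, over the 4 libraries, among 241 other genes called in all of them. Nearest to Gins3 was Mcm3, a subunit of the helicase that GINS activates, at 0.59 points. Cdca2, a mitotic phosphatase regulator, and Kctd9 followed, both at 0.91 and with the same rank as each other in every library. Nearest to Cdc7 were Cdca8, a chromosomal passenger gene, and 9930104L06Rik, both at 0.83 and likewise equal in rank in every library. Foxm1, a mitotic transcription factor gene, came next at 1.78. Dbf4 was followed, after Slc25a40 with the same peak, by Tesk2 at 2.33 and the DNA damage mediator gene Mdc1 at 2.60. Gins2 was nearest to Srgap2 at 1.79, Timm50 at 2.18 and Hmgxb4 at 2.87.

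Other genes of origin firing and of the replisome were called in part. Of 25 firing and replisome genes, 6 and 15 had a summit in KO replicates 1 and 2, and 20 and 17 in WT replicates 1 and 2. Over all protein-coding genes the shares were 1.17% and 3.26% in KO, and 6.62% and 4.72% in WT. In all 4 libraries the share was 1.12%, and in the libraries other than KO replicate 1 it was 2.77%. The 6 of the 25 called in all 4 libraries were Mcm3, Ticrr (the treslin gene, which brings Cdc45 to the helicase), Pole3 (a polymerase epsilon subunit), Clspn and Timeless (fork protection factors) and Ccne1 (cyclin E1). KO replicate 1 set this count: without it, 13 of the 25 had a summit in each of the 3 other libraries, with Mcm4, Mcm5, Mcm7, Topbp1, Recql4, Wdhd1 and Tipin added. Ticrr ranked 101 and 97 in KO and 49 and 60 in WT. Among genes of factors that help assemble the active helicase, Topbp1 and Recql4 were called in both WT lists and in KO replicate 2, Mtbp in WT replicate 2 only, and Donson in none. The 3 genes with a summit in both WT lists and in no KO list were Mcm6, Pole and Pole4. None of the 7 origin firing genes had that pattern, a count near the 1.08% of all genes. Among the 846 genes called in both WT lists, 237 had it. There it held for 3 of 16 of the firing and replisome genes and for none of the 5 origin firing genes, too few to compare. Of the 9 recognition and loading genes, 0 and 3 were called in KO, and 4 and 3 in WT. None was called in KO replicate 1, and so none in all 4 libraries, counts near the shares over all genes (1.17% and 1.12%). Cdc6, Cdt1 and Gmnn (3 of the 9) were called in each of the libraries other than KO replicate 1. Orc1, Orc2, Orc3, Orc4 and Orc5 had no summit in any library, like most genes (7.63% of all genes had one in at least 1 library).

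H3K27ac covered a longer stretch in KO than in WT at all 7 genes, against 52.8% of the 13695 protein-coding genes with the mark. Each covered length is out of the 10001 bp within 5000 bp of the gene start, from 1 library per genotype without a replicate check. In bulk tissue a mark in more cells and more of the mark per cell cannot be told apart. Gins2 had 1573 bp in KO and 189 bp in WT, where the called stretch lay from -708 to -520 bp relative to the start and did not reach it. Gins3 had 711 bp in KO, from -11 to 699 bp relative to the start, and no region was called within 5000 bp in WT. Gins4 had 1142 bp in KO and 555 bp in WT, and Cdc7 had 1245 bp in KO and 824 bp in WT. These 4 genes passed a difference of at least 1.5-fold, which 15.1% of all marked genes did in this direction. Cdc45 had 2372 bp in KO and 1767 bp in WT, Gins1 had 4558 bp in KO and 4016 bp in WT, and Dbf4 had 1363 bp in KO and 1247 bp in WT. The Gins1 lengths, here and for H3K4me2 below, include an upstream region that covers an end of the neighbouring gene Abhd12, 4777 bp from the start. For both marks, the regions over the starts of Dbf4 and Cdc45 also cover those of Slc25a40 and Ufd1, 5 and 236 bp away. They cannot be assigned to Dbf4 or Cdc45 alone. The median difference was 587 bp over the 7 genes and 38 bp over all marked genes. Genes with an E2f4 summit in both WT libraries lay between these, with 69.6% of 840 longer in KO and a median of 285 bp. The count of 7 depended on the window. In KO, 1 gene was shorter within 1000 bp of the start (Gins1, -473 bp) and 1 within 10000 bp (Gins4, -1125 bp). With both gene ends counted, 1 was shorter (Cdc7, -32 bp). The KO regions at Gins2 and Gins3 had −log10 q-values of 5.73 and 5.68, in a list whose lowest value was 1.01. The Gins4 region had 4.33 in KO and 4.54 in WT, so that at −log10 q-values of at least 5 it was kept in neither genotype. The Cdc7 region had 8.64 in KO and 4.39 in WT.

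**Figure D3:**
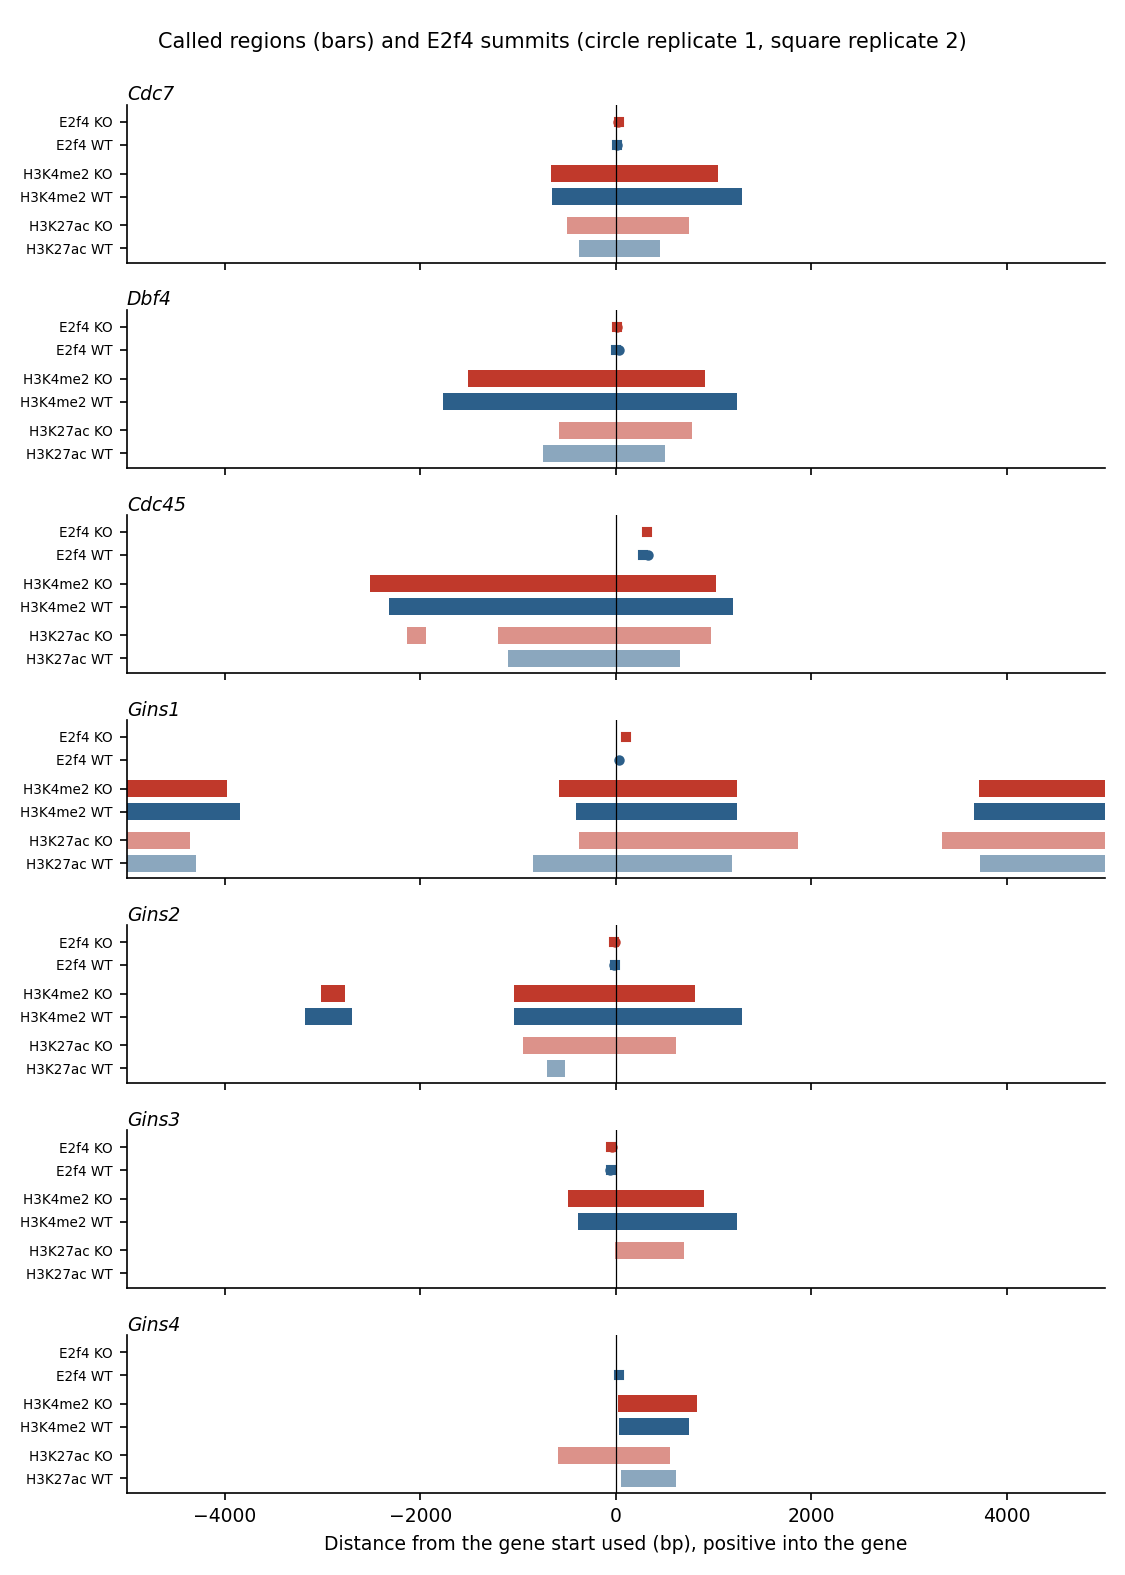
Called H3K4me2 (solid) and H3K27ac (pale) regions and E2f4 summits of KO (red, upper of each pair) and WT (blue) libraries within 5000 bp of the start of each gene; the horizontal axis is the distance in bp from the start used, positive into the gene. H3K27ac reaches the start of Gins2, Gins3 and Gins4 in the KO track only, and Gins1 is the one gene with further marked regions on both sides. The upstream regions at Gins1 cover an end of the neighbouring gene Abhd12, 4777 bp from the start.

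**Figure D4:**
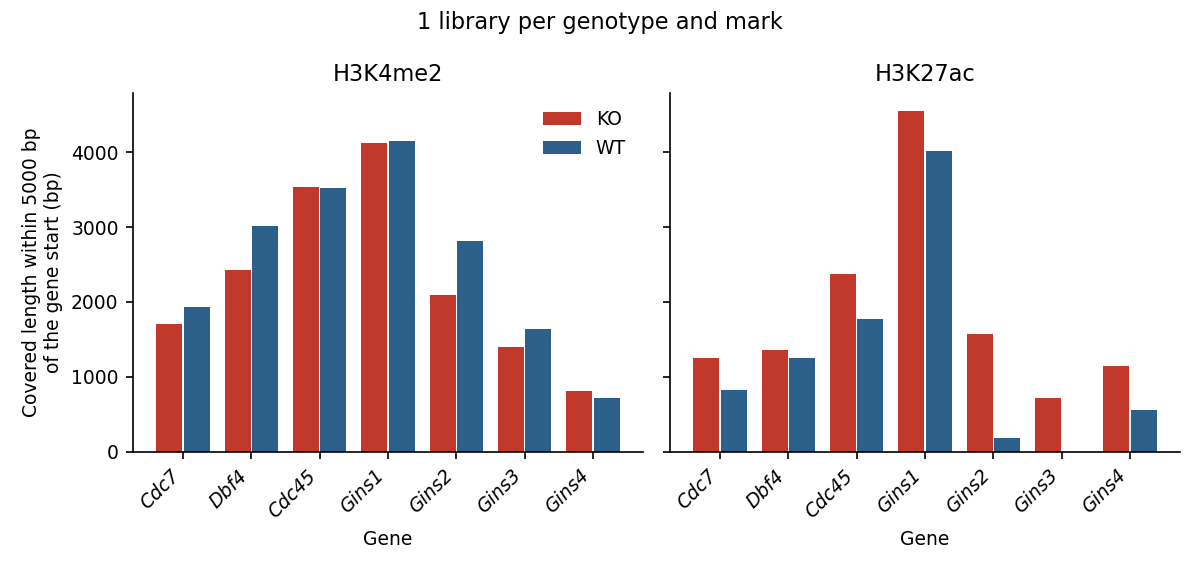
Covered length (vertical axis, bp) of H3K4me2 and H3K27ac within 5000 bp of the start of each gene in the KO (red) and WT (blue) library. All 7 KO bars exceed the WT bars for H3K27ac, from 116 bp at Dbf4 to 1384 bp at Gins2, while 5 of 7 are lower for H3K4me2.

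H3K4me2 was called within 1000 bp of all 7 starts in both genotypes. At Gins1, Gins2 and Gins4 this was favoured in advance, because the end with more H3K4me2 was taken as their start. The mark covered a shorter length in KO at 5 of the 7, against 39.4% of 16052 marked genes, and a longer one at 2, against 60.3%. The differences were small, and none of the 7 reached 1.5-fold, which 6.32% of marked genes did in this direction. Gins2 had 2093 bp in KO and 2815 bp in WT, and Dbf4 had 2426 bp in KO and 3009 bp in WT, the largest differences of the group (-722 and -583 bp). Cdc7 had 1706 bp in KO and 1939 bp in WT, and Gins3 had 1399 bp in KO and 1636 bp in WT. Gins1 had 4121 bp in KO and 4148 bp in WT, Cdc45 had 3536 bp in KO and 3524 bp in WT, and Gins4 had 810 bp in KO and 719 bp in WT. The median difference was -233 bp over the 7 genes and 127 bp over all marked genes. Genes with an E2f4 summit in both WT libraries lay between these, with 54.3% of 846 shorter in KO and a median of -52 bp. The count depended on the window: within 1000 bp of the start, where most of the 2001 bp were covered in both genotypes at 6 of the genes, 2 were shorter and 4 longer in KO.

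**Figure D5:**
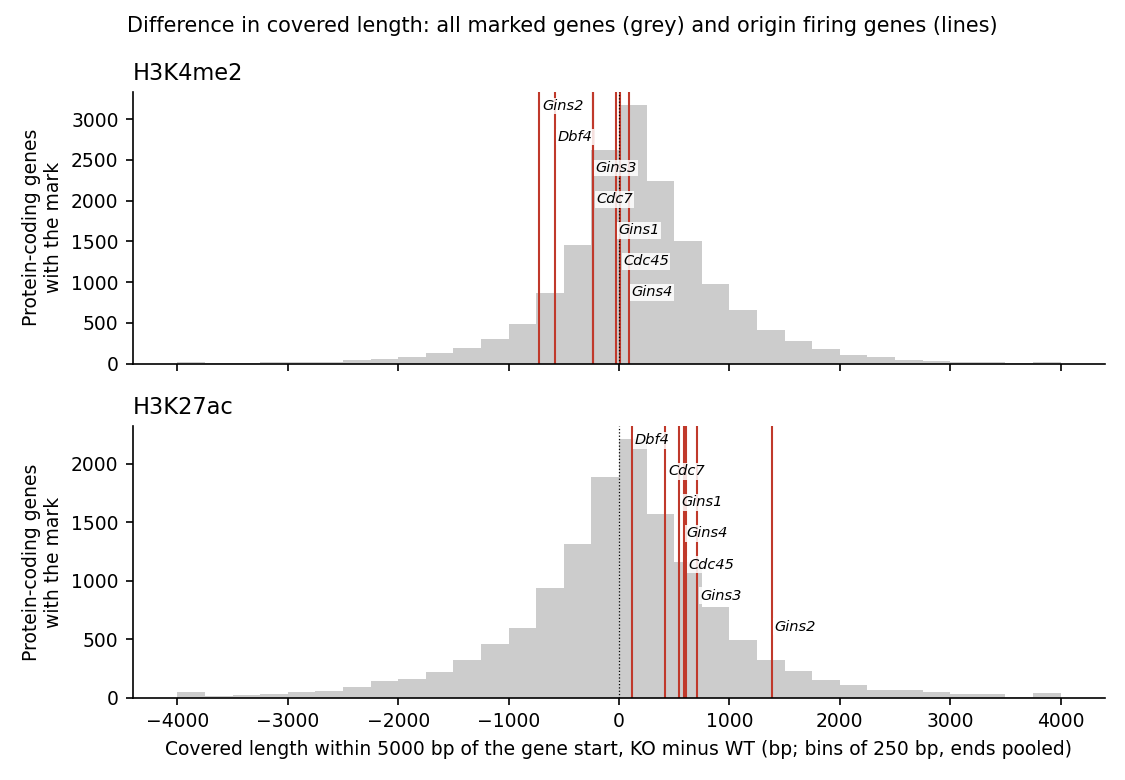
Number of protein-coding genes (vertical axis, grey bars) by difference in covered length, KO minus WT (horizontal axis, bp, 250 bp bins), for H3K4me2 above and H3K27ac below, with a red line at each origin firing gene. For H3K27ac all lines lie to the right of 0, and for H3K4me2 they run from -722 to 91 bp.

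On the side that faces the gene, the edges of the regions over the start differed in opposite directions for the marks. This measure was added after the regions of the 7 genes had been seen. The H3K4me2 region over the start ended nearer to it in KO at 5 of the 6 genes where both genotypes had such a region, as at 42% of 12068 genes. At Gins2 it ended 813 bp into the gene in KO and 1293 bp in WT, at Gins3 905 bp in KO and 1244 bp in WT, at Dbf4 915 bp in KO and 1237 bp in WT, and at Cdc7 1044 bp in KO and 1290 bp in WT. At Cdc45 it ended 1023 bp inside in KO and 1203 bp in WT, and at Gins1 the edges coincided at 1235 bp. The H3K27ac region ended farther into the gene in KO at all 4 genes where both genotypes had one over the start, as at 53.9% of 9468 genes. These were Cdc7 (744 bp in KO and 450 bp in WT), Dbf4 (779 bp in KO and 505 bp in WT), Cdc45 (969 bp in KO and 660 bp in WT) and Gins1 (1867 bp in KO and 1188 bp in WT). The median shift of this edge was -284 bp for H3K4me2 and 301.5 bp for H3K27ac over these genes, and 56 bp and 29 bp over all genes with such regions. On the side away from the gene the median H3K4me2 shift was -57.5 bp, and single genes went both ways. The Dbf4 region began at -1510 bp in KO and -1771 bp in WT, and the Cdc45 region at -2512 bp in KO and -2320 bp in WT.

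Among the further firing and loading genes, H3K4me2 was shorter in KO at 17 of the 25 firing and replisome genes and at 8 of the 9 loading genes. H3K27ac was longer in KO at 16 of the 25, with a median difference of 138 bp, and at 4 of the 9, with a median of -35 bp. Over all marked genes, 39.4% were shorter in KO for H3K4me2 and 52.8% longer in KO for H3K27ac. Topbp1 (4446 bp in KO and 1558 bp in WT) and Ccne2 (4644 bp in KO and 1861 bp in WT) had the largest H3K27ac differences towards KO of the 25. Mcm7 (2677 bp in KO and 3779 bp in WT) and Mcm10 (2560 bp in KO and 3524 bp in WT) lay on the other side.

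Markers of other liver cells differed between the same libraries, and their part in these results was not tested. The hepatocyte genes (8 of 8 marked) had a summed covered length of 65873 bp of H3K27ac in KO and 64717 bp in WT. Of these, 4 (Alb, Apoa1, Ttr and Tat) were covered over all 10001 bp in both, so they could show no difference. Cyp2e1 alone was shorter in KO (7296 bp in KO and 10001 bp in WT), and 3 genes were longer (Hnf4a, Serpina1a and Cps1). H3K27ac was shorter in KO at 4 of 5 marked endothelial genes (25515 bp summed in KO and 31592 bp in WT, Vwf at 0 in both), 3 of 5 macrophage genes (19502 bp in KO and 22434 bp in WT) and 5 of 5 stellate genes (5775 bp in KO and 14222 bp in WT, Col1a1 at 0 in KO). At lymphocyte genes the sums were 5333 bp in KO and 5287 bp in WT, but single genes went both ways. Of 4 marked genes, 2 were shorter and 2 longer in KO. Cd3d had 627 bp in KO and 1873 bp in WT, and Ptprc had 4019 bp in KO and 2591 bp in WT. Cd2 and Cd3e were at 0 in both and Cd79b at 0 in KO. Of 5 cholangiocyte genes only Sox9 was marked, in WT. H3K4me2 at hepatocyte genes summed to 56652 bp in KO and 63668 bp in WT, with 4 genes shorter in KO, 2 longer and 2 equal. This mark was shorter at 6 of 6 marked lymphocyte genes (2961 bp in KO and 24894 bp in WT, with Cd2, Cd3e and Cd79b at 0 in KO). It was longer at 6 of 6 endothelial genes (28491 bp in KO and 17770 bp in WT, Vwf at 0 in WT) and 5 of 5 stellate genes (16605 bp in KO and 7511 bp in WT). It was longer at 3 of 5 macrophage genes (16039 bp in KO and 14692 bp in WT, Timd4 at 0 in WT), and cholangiocyte genes had 5056 bp in KO and 6007 bp in WT, with Krt19 and Krt7 at 0 in both. None of the 35 marker genes had an E2f4 summit in any library, where 7.63% of all protein-coding genes had one in at least 1.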

How the data were processed

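All 8 peak lists of the immunoprecipitations were used; data of the 8 inputs were not used here. Per the submitters' processing notes, which assign no roles, the build was mm10 and the tools were HOMER, MACS2 2.0.10.20131216, Picard and Bowtie2 2.2.3. Peaks were listed per library. Each deposited list gives a fold enrichment (a ratio over background), −log10 p-values and −log10 q-values, and a score of 10 times the −log10 q-value, by the authors; fold, −log10 q-value and summit offset were used. Depth is unknown.

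Gene ends came from an NCBI RefSeq table (GRCm38.p6) and strands from its promoter windows (17492 of 21887 genes). For the other 4395 the start was taken as whichever end had more H3K4me2 (both genotypes added) in the surrounding 2000 bp. Exons and introns were not analysed here. Python 3.11.15, numpy 2.4.6 and pandas 2.3.3 were used, with functions tested on simulated data. The genes and gene lists were chosen with earlier results of these data known; 1 lymphocyte marker of the fixed list is not reported here. All 7 genes were named, and for each one called in all 4 E2f4 libraries the 3 nearest in rank. Alternatives were other windows (500, 2000 and 5000 bp for E2f4; 1000, 2000 and 10000 bp for the marks), −log10 q-values of at least 5, lists of equal length, other gene ends, and each E2f4 library left out.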

Additional observations from a re-analysis of the deposited data

How the results depend on the processing

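The difference in the number of origin firing genes with an E2f4 summit, -1.0 in KO minus WT, was the same in windows of 500, 2000 and 5000 bp, at −log10 q-values of at least 5 and at the gene start only. With lists of equal length (287 peaks each) it was 0.5, with 4 and 3 genes in KO and 3 and 3 in WT, and Cdc45, Gins1 and Gins4 then had no summit in any list; fewer peaks were used. Leaving out 1 library gave -2.0 to 0. With the replicate numbers as a block it was -1.0 (exact sign-flip test, p = 1), and likewise with the numbers crossed, an alternative added after seeing the data. Deviations of same-numbered libraries correlated at -0.12 over ranks of 245 genes and 0.22 over calls of 1669 genes. For H3K4me2, the counts of shorter and longer genes were 2 and 4 within 1000 bp and 6 and 1 within 10000 bp. For H3K27ac, 1 gene was shorter in KO within 1000 bp (Gins1, -473 bp), within 10000 bp (Gins4, -1125 bp) and with both gene ends (Cdc7, -32 bp). At −log10 q-values of at least 5, H3K27ac was longer at 6 genes; Cdc7, Gins2 and Gins3 had it in KO only, and Gins4 had none in either genotype. H3K4me2 differences that changed sign were, within 1000 bp, the median (7 bp), Cdc7 (13 bp), Gins1 (167 bp) and Gins3 (7 bp). Within 2000 bp they were Cdc45 (-180 bp) and Gins1 (167 bp), within 10000 bp Gins4 (-566 bp), and with both ends Cdc7 (47 bp), Cdc45 (-131 bp) and Gins1 (211 bp). The cause was not tested. Leaving out 1 library, an alternative added after seeing the data, the number called in every remaining library was 4 to 5 of the 7 genes and 6 to 13 of the 25 firing and replisome genes, the highest of each without KO replicate 1. The 43 other alternatives to the main counts kept the direction of the E2f4 difference or stayed within 1.5 times of the count, among them H3K4me2 and H3K27ac lists of equal length. Marks with 1 library per genotype have no replicate error.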
